A study of Homo sapiens with 6 samples.

Results

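The genes described here are 32 genes that the transcription factor p53 is known to switch on, among them CCNG1, which encodes cyclin G1 and was chosen by the study for q-PCR. They were taken by gene symbol, and each was represented by the array row that carries its symbol. Of the 32 genes, 29 had a row among the 17687 gene symbols of the array, while BTG2, FDXR and TNFRSF10C were not matched to a row. The RNA came from MSTO-211H (MSTO), an established human mesothelioma cell line, and all samples shared this line and its culture conditions. Of 6 samples, 3 were labelled as control and 3 as treated for 48 h with an inhibitor of miR-503 (anti-miR-503), and 100 ng of total RNA of each was put on 1 Clariom S array. The sample titles call the controls untreated, the treatment label speaks of DMSO as vehicle, and the methods of the study name both a negative control and untreated cells, so what the control cells received is not settled. The samples are named as biological replicates and the study describes its in vitro work as independent experiments, but the labels do not say whether each array had a culture of its own, and p-values measure only the spread between these samples, which may be technical.

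p53 is kept low by its own target MDM2 and accumulates after DNA damage or other stress, when it binds to its sites near target genes and raises their transcription. Its targets stop the cell cycle, repair DNA, adjust metabolism and redox state, or start cell death, and several of them switch p53 off again. A microRNA pairs through its seed, bases 2 to 8 from the 5′ end, with sites in messenger RNAs and lowers their level or translation, and an anti-miR is an oligonucleotide that blocks one microRNA.

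The sequences shown first are the microRNA that the treatment was directed against and close relatives with nearly the same seed, because the inhibitor defines the comparison. They were taken from RefSeq (GRCh38.p14), 5′ to 3′, with the seed in capitals. The mature miR-503 lies on chromosome X at 134546371-134546393, minus strand.
hsa-miR-503-5p: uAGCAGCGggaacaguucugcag
hsa-miR-424-5p: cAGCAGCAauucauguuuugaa
hsa-miR-16-5p: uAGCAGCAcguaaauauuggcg
Counted from the 5′ end and with the miR-503 base first, miR-424 differed from miR-503 by U1C and G8A within the first 8 bases, and miR-16 by G8A. miR-503 thus shares all but the last base of its seed with both relatives. The primers of the study for CCNG1, on chromosome 5, are shown because this gene links the arrays to the q-PCR.
CCNG1 forward primer: tgcaactgtattattcactccttcaag
CCNG1 reverse primer: ccttcagttgagcttctagtctttca

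Promoters were searched for the p53 consensus site, which is made of 2 elements of 10 bases that may lie up to 13 bases apart. The RefSeq table (GRCh38.p14) held a promoter, from 250 bases before to 50 bases after the start site, for 26 of the 32 genes, and GADD45A, RRM2B, TP53INP1, PHLDA3, TNFRSF10C and TNFRSF10D had none. A complete site on either strand was found in 1 of the 26 promoters (3.85%), that of DDB2, in 0 of 16 promoters of other p53 targets, and in 10 of all 27305 promoters of the table (0.0366%). With 1 mismatch allowed outside the C and G of each core, DDB2 was again the only gene, against 138 of all promoters (0.505%). The site of DDB2, which encodes a damage-recognition protein, is shown because it was the only match, with the core of each element in capitals. It lies on chromosome 11 at 47214979-47214999, plus strand, with 1 base between its elements, and begins 5 bases after the start site.
DDB2 promoter site: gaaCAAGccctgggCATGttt
A match in these letters is a description of the sequence and not a bound site, and no match says only that the letters are not in this window.

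The deposited values are log2 signals made by RMA, which corrects background, equalizes the arrays and summarizes the probes of a transcript. A log2 difference of 1 is a 2-fold change, and signals of different genes are not compared with each other because their probes differ. The background of each array, the 95th percentile of its 612 negative control rows, lay between 7.44 and 8.09. The mesothelioma line markers MSLN, CALB2, KRT7, KRT18 and VIM were above background on all arrays, WT1, KRT19 and PDPN on none, and so were none of the measured markers of leukocytes (4), endothelial cells (4) and fibroblasts (4). One pair of arrays did not lie with its groups. Over the 21448 rows (genes are no independent replicates) control replicate 3 and anti-miR-503 replicate 1 had the highest correlation of all pairs (r = 0.991), above that of either array with its own group (0.978 to 0.982). Both arrays also had low signals of cell division genes, as given with those genes, so the counts are given with and without them.

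The 29 measured p53 target genes were about equally divided in direction, and none passed the adjusted threshold. By limma over all 21448 rows, 0 of the 29 passed an adjusted p under 0.05, where 0% of all rows did. At an unadjusted p of 0.05 or less, 3 of the 29 passed (PLK2, EDA2R and TP53INP1), where 6.42% of all rows did. With a change of at least 2-fold in addition, 0 genes were higher, against 0.872% of all rows, and 2 were lower (EDA2R and TP53INP1), against 0.914% of all rows. Differences are given as arrays labelled anti-miR-503 minus arrays labelled control, and for EDA2R, PLK2 and TP53INP1, the members found in the gene sheet of the study, that sheet runs in the opposite direction. Which of them gives the direction of the treatment is not settled, so every direction printed is by array label only. The mean was higher on anti-miR-503 arrays for 15 of the 29 genes and lower for 14. Their median log2 difference was 0.024, beside 0.0098 over all rows, and their median absolute difference was 0.29, beside 0.22. The 3 anti-miR-503 arrays lay wholly above the 3 control arrays for CCNG1 and PLK2, as they did for 5.92% of all rows, and wholly below them for EDA2R, as for 4.6% of all rows. For 28 of the 29 genes the range within at least 1 group was wider than the difference between the means, PLK2 being the exception, and for 26 genes the 95% interval of the difference included 0.

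The counts of 2-fold changes depended on single arrays. The 2 lower genes became 1 without control replicate 2 (EDA2R) or without control replicate 3 (TP53INP1), where 1.17% and 1.82% of all rows were lower. They became 0 without anti-miR-503 replicate 2 or without anti-miR-503 replicate 3, where 0.457% and 0.382% of all rows were lower. GADD45A was higher past the threshold without control replicate 1, where 0.573% of all rows were. Without anti-miR-503 replicate 1, 3 genes were higher (GADD45A, PLK2 and GDF15) and 4 were lower (TP53INP1, TNFRSF10D, EDA2R and EPS8L2), where 2.42% and 3.81% of all rows were. Without control replicate 3 and anti-miR-503 replicate 1 together, an alternative added after the data had been seen, 4 genes were higher (GADD45A, PLK2, RRM2B and GDF15) and 5 lower (TIGAR, TNFRSF10D, TP53INP1, EDA2R and EPS8L2), where 3.09% and 4.43% of all rows were. In this fit of 2 against 2 arrays, 4 of the 29 genes (GADD45A, TP53INP1, EDA2R and EPS8L2) and 222 higher and 287 lower rows of all passed an adjusted p under 0.05. These arrays were left out for being alike across the groups, which by itself widens the difference between the groups, so the last counts describe the other 4 arrays and are no test of the treatment.

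**Figure D1:**
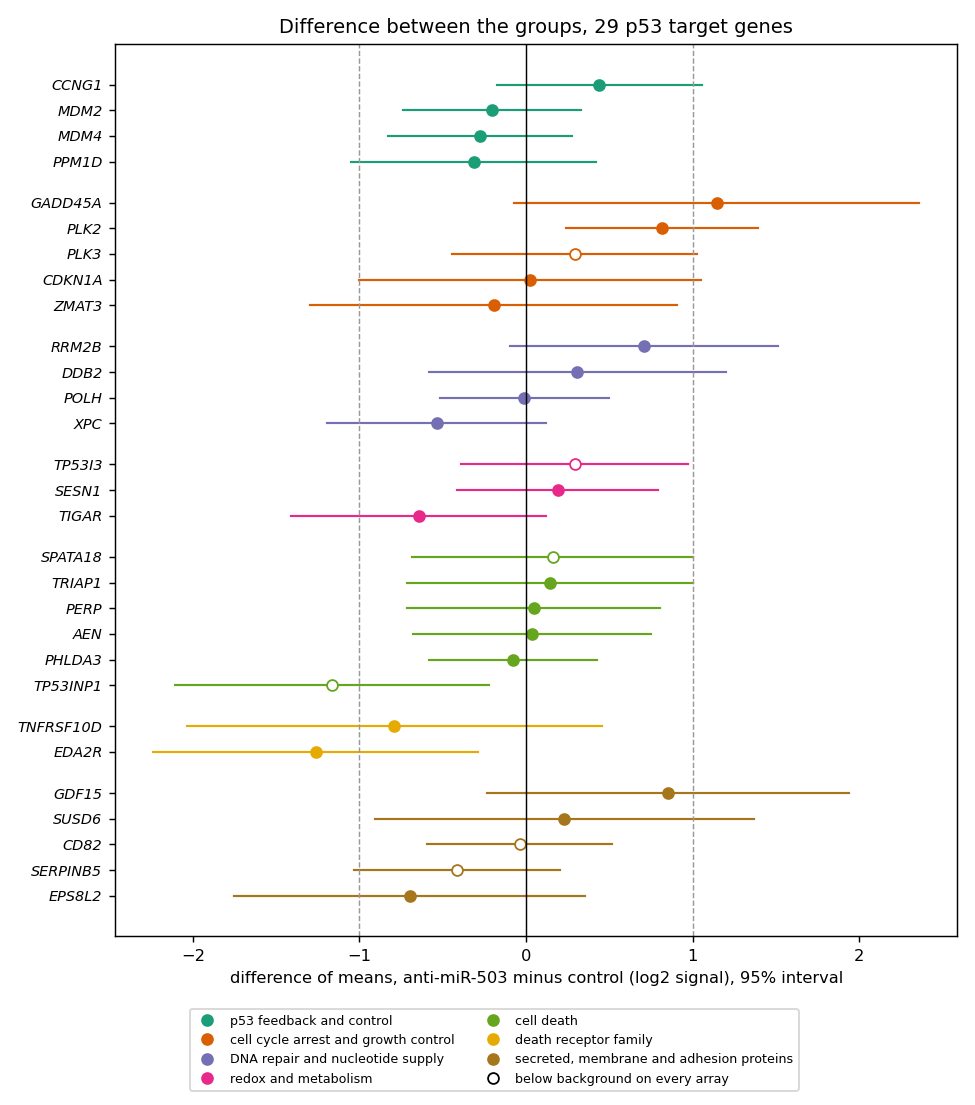
Difference of the mean log2 signal, anti-miR-503 minus control, for the 29 measured p53 target genes grouped by role (points, with the 95% interval from limma; open points were below background on every array; dashed lines mark a 2-fold change in either direction). The intervals of PLK2, EDA2R and TP53INP1 leave out 0 and those of the other 26 genes include it.

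Among the genes that control p53 itself, CCNG1 encodes cyclin G1, which brings the phosphatase PP2A to MDM2 and so takes part in the feedback on p53. CCNG1 had log2 signals of 13.26, 14.03 and 14.09 on control replicates 1, 2 and 3, and of 14.15, 14.31 and 14.25 on anti-miR-503 replicates 1, 2 and 3. All anti-miR-503 arrays were above all control arrays, by at least 0.055, and control replicate 1 stood below the other 5 arrays. The mean was 13.80 ± 0.46 (SD, n = 3) for control and 14.24 ± 0.080 (SD, n = 3) for anti-miR-503, a log2 difference of 0.44 (SE 0.27, 95% interval -0.18 to 1.06) that did not pass the test (adjusted p = 0.777 from limma). Without control replicate 1 the difference of CCNG1 was 0.17, so this array carried more than any other of the distance between the groups.

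MDM4, which binds p53 and blocks its activity, had signals of 11.20, 10.61 and 11.15 on control arrays against 10.73, 10.83 and 10.56 on anti-miR-503 arrays. The groups overlapped, since control replicate 2 lay among the anti-miR-503 arrays, and the log2 difference was -0.28 (SE 0.24, adjusted p = 0.824 from limma). MDM2, the ubiquitin ligase that marks p53 for degradation and a classical readout of p53 activity, was added after its values were seen. Its signals were 11.88, 11.78 and 11.62 on control arrays against 11.77, 11.69 and 11.22 on anti-miR-503 arrays, a log2 difference of -0.20 (SE 0.23, 95% interval -0.74 to 0.33, adjusted p = 0.877 from limma). The groups of MDM2 overlapped, and anti-miR-503 replicate 3 was the lowest array. PPM1D, a phosphatase that ends the DNA damage signal, ranged from 10.02 to 10.91 on control arrays and from 9.69 to 10.63 on anti-miR-503 arrays.

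Of the genes of cell cycle arrest and growth control, PLK2, a polo-like kinase with a part in centriole duplication, gave the clearest separation. Its signals were 15.40, 15.45 and 15.73 on control arrays against 15.93, 16.49 and 16.61 on anti-miR-503 arrays. The lowest anti-miR-503 array, replicate 1, was 0.2 above the highest control array, replicate 3. PLK2 was 1.76-fold higher by array label, a log2 difference of 0.82 (SE 0.25, 95% interval 0.24 to 1.39), with adjusted p = 0.756 from limma. It passed an unadjusted p of 0.05 but not the 2-fold change, and the difference stayed between 0.69 and 1.02 when any 1 array was left out.

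GADD45A, a stress-induced protein that binds the replication clamp PCNA, had signals of 13.29, 12.61 and 12.16 on control arrays against 12.57, 14.68 and 14.26 on anti-miR-503 arrays. Replicates 2 and 3 of the anti-miR-503 arrays were above every control array, whereas replicate 1 lay inside the control range. The log2 difference of 1.15 (SE 0.53, 95% interval -0.070 to 2.36) did not pass either threshold (adjusted p = 0.756 from limma). It was 1.78 without anti-miR-503 replicate 1 and 0.72 without anti-miR-503 replicate 2.

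CDKN1A, which encodes the cyclin-dependent kinase inhibitor p21 and is the classical target of p53 in cell cycle arrest, was also added after its values were seen. Its signals were 13.33, 11.85 and 11.76 on control arrays against 12.71, 12.56 and 11.74 on anti-miR-503 arrays. Control replicate 1 was the highest and anti-miR-503 replicate 3 the lowest of the 6 arrays. Between these, anti-miR-503 replicates 1 and 2 lay above control replicates 2 and 3. The log2 difference was 0.024 (SE 0.45, 95% interval -1.002 to 1.05, adjusted p = 0.993 from limma), and it had either sign when 1 array was left out (-0.25 to 0.53). The interval is wide, so a 1.5-fold change in either direction was not detectable with these arrays. ZMAT3, an RNA-binding zinc finger protein, was highest on control replicate 3 (11.46) and anti-miR-503 replicate 1 (11.61) and between 9.78 and 10.67 on the others, and PLK3, a kinase related to PLK2, was below background on every array.

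**Figure D2:**
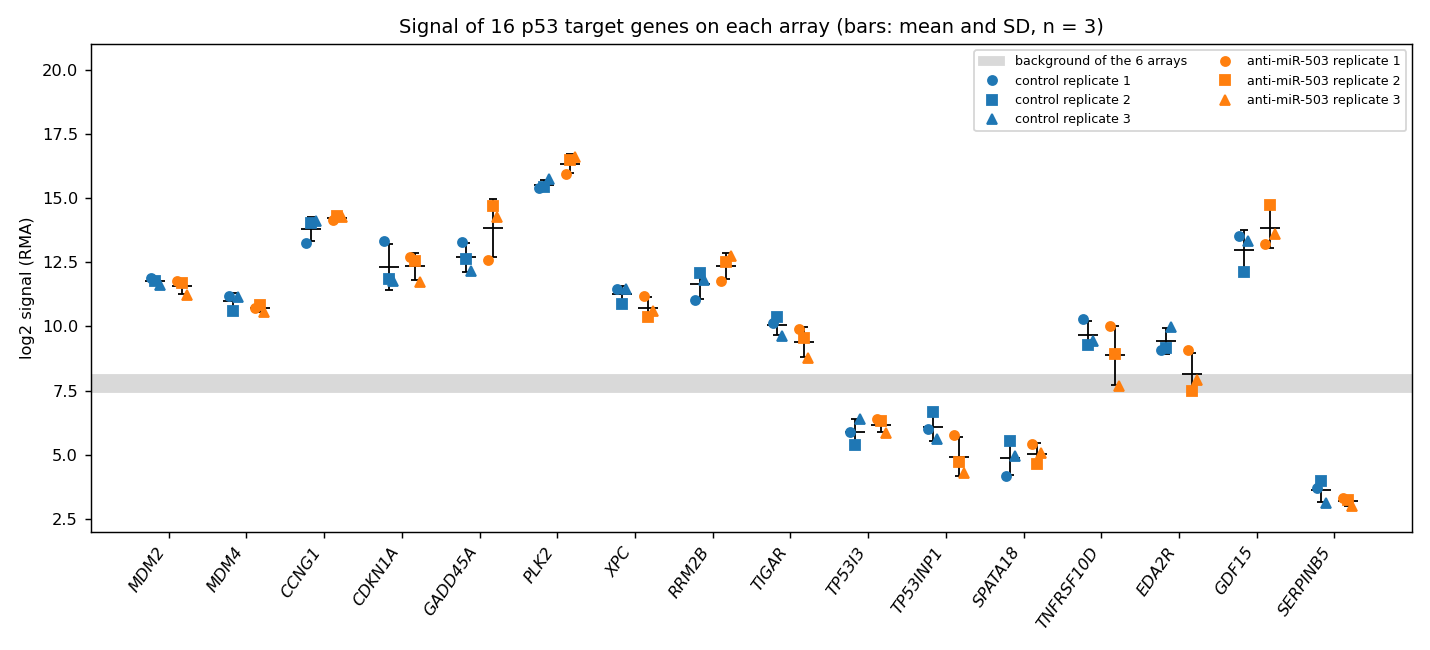
Log2 signal (RMA) of 16 p53 target genes on each array, with control arrays in blue and anti-miR-503 arrays in orange, symbols for the replicate number, and bars for the mean and SD of 3 arrays. The grey band is the range of the array backgrounds, 7.44 to 8.09, and TP53I3, TP53INP1, SPATA18 and SERPINB5 lie below it on every array.

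The genes of DNA repair and nucleotide supply differed in sign among themselves. RRM2B, the p53-inducible small subunit of ribonucleotide reductase, had signals of 11.02, 12.07 and 11.81 on control arrays against 11.78, 12.52 and 12.73 on anti-miR-503 arrays. Only anti-miR-503 replicate 1 lay inside the control range, and the log2 difference was 0.71 (SE 0.35, adjusted p = 0.757 from limma). XPC, which recognizes damaged DNA in nucleotide excision repair, had signals of 11.44, 10.87 and 11.45 on control arrays against 11.18, 10.38 and 10.59 on anti-miR-503 arrays. Here too anti-miR-503 replicate 1 was the array inside the control range, and the log2 difference was -0.54 (SE 0.29, adjusted p = 0.766 from limma). DDB2, whose promoter site is shown above, ranged from 7.996 to 9.38 on control arrays and from 8.83 to 9.60 on anti-miR-503 arrays, and POLH, a polymerase that copies past ultraviolet damage, from 9.47 to 9.77 and from 9.39 to 9.79. Neither gene had a difference larger than the spread within its groups.

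In redox and metabolism, TIGAR, which lowers the level of a glycolysis activator, had signals of 10.14, 10.37 and 9.64 on control arrays against 9.91, 9.53 and 8.77 on anti-miR-503 arrays. Anti-miR-503 replicate 1 again lay among the controls, and the log2 difference was -0.64 (SE 0.34, adjusted p = 0.763 from limma). TP53I3, a quinone oxidoreductase-like protein, was below background on every array, with 5.89, 5.39 and 6.37 on control arrays against 6.37, 6.30 and 5.85 on anti-miR-503 arrays, and gives no usable fold change. SESN1, a sestrin that restrains the kinase mTORC1, ranged from 8.60 to 9.26 on control arrays and from 8.79 to 9.40 on anti-miR-503 arrays.

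Of the 6 genes of cell death, TP53INP1, a stress-induced nuclear protein that acts with p53, was lower past the 2-fold threshold, but all its signals were below background. They were 5.995, 6.68 and 5.61 on control arrays against 5.75, 4.73 and 4.30 on anti-miR-503 arrays, with group means of 6.09 ± 0.54 and 4.93 ± 0.74 (SD, n = 3) and adjusted p = 0.756 from limma. Signals of this size are not well above background in either group, so no fold is given. SPATA18, a protein of mitochondrial quality control, was also below background on every array, with 4.17, 5.54 and 4.94 on control arrays against 5.42, 4.63 and 5.08 on anti-miR-503 arrays. The other 4 genes, AEN (a nuclease), TRIAP1 (an inhibitor of apoptosis), PHLDA3 (a repressor of AKT signalling) and PERP (a desmosome protein), had log2 differences between -0.077 and 0.15, each smaller than its range within either group.

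Both measured members of the death receptor family, EDA2R and TNFRSF10D, had lower means on anti-miR-503 arrays, but the groups of TNFRSF10D overlapped. The death receptors FAS, TNFRSF10A and TNFRSF10B of the list of other p53 targets are given below. EDA2R, a receptor of the TNF family for ectodysplasin A2, had signals of 9.07, 9.17 and 9.99 on control arrays against 9.07, 7.49 and 7.90 on anti-miR-503 arrays. The groups did not overlap, but only by 0.0084 between control replicate 1 and anti-miR-503 replicate 1, and anti-miR-503 replicate 2 was not above background. EDA2R was 2.40-fold lower by array label, a log2 difference of -1.26 (SE 0.43, 95% interval -2.24 to -0.29), with adjusted p = 0.756 from limma. Without control replicate 3, anti-miR-503 replicate 2 or anti-miR-503 replicate 3 the difference was -0.97, -0.93 or -1.14 and no longer passed an unadjusted p of 0.05, so the call rested on each of these arrays.

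TNFRSF10D, a decoy receptor that binds the death ligand TRAIL without passing on the signal, had signals of 10.29, 9.26 and 9.42 on control arrays against 10.003, 8.92 and 7.67 on anti-miR-503 arrays. Anti-miR-503 replicate 1 exceeded 2 of the 3 control arrays, and replicate 3 was the lowest of all. The log2 difference was -0.79 (SE 0.55, adjusted p = 0.791 from limma), and it was -0.20 without anti-miR-503 replicate 3. The death receptors in the list of other p53 targets had higher means on anti-miR-503 arrays, but their groups overlapped and none of them passed a threshold. The TRAIL receptors TNFRSF10A and TNFRSF10B had log2 differences of 0.45 (SE 0.28, adjusted p = 0.777 from limma) and 0.44 (SE 0.27, adjusted p = 0.777 from limma). FAS, the receptor of FAS ligand, had signals of 7.52, 8.04 and 7.48 on control arrays against 7.08, 9.04 and 9.46 on anti-miR-503 arrays, and only the last 2 values were above background.

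Among the secreted, membrane and adhesion proteins, GDF15, a secreted stress cytokine, had signals of 13.53, 12.14 and 13.32 on control arrays against 13.19, 14.75 and 13.61 on anti-miR-503 arrays. Anti-miR-503 replicate 2 was the highest and control replicate 2 the lowest, and the other 4 arrays lay between 13.19 and 13.61. The log2 difference was 0.85 (SE 0.48, adjusted p = 0.768 from limma). SERPINB5 (maspin), a serpin of epithelial cells, was below background on every array, with 3.71, 3.99 and 3.12 on control arrays against 3.33, 3.25 and 3.00 on anti-miR-503 arrays. EPS8L2, an actin-binding protein, was 11.58, 11.73 and 10.93 on control arrays against 11.83, 10.08 and 10.24 on anti-miR-503 arrays. It was high on anti-miR-503 replicate 1 and low on the other anti-miR-503 arrays, with a log2 difference of -0.70 (SE 0.46, adjusted p = 0.784 from limma). SUSD6, a membrane protein, was above background only on anti-miR-503 replicate 1 (8.27), and the tetraspanin CD82 on none.

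Seen by array, the median of the 29 genes moved little. Taken against the mean of the 6 arrays, it was 0.13, 0.013 and -0.038 on control replicates 1, 2 and 3, and 0.13, 0.094 and -0.22 on anti-miR-503 replicates 1, 2 and 3. Anti-miR-503 replicate 3 held the lowest value of 9 of the 29 genes and anti-miR-503 replicate 2 the highest of 8. The matching shares over all rows were not counted, so these counts are not read as a trait of the p53 targets. Of the 29 genes, 20 were above background on all arrays, 3 on some (EDA2R, PHLDA3 and SUSD6) and 6 on none (TP53INP1, TP53I3, SPATA18, SERPINB5, PLK3 and CD82). The SE of a difference lay between 0.22 and 0.55, so the number of arrays limits what could be seen in single genes.

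**Figure D3:**
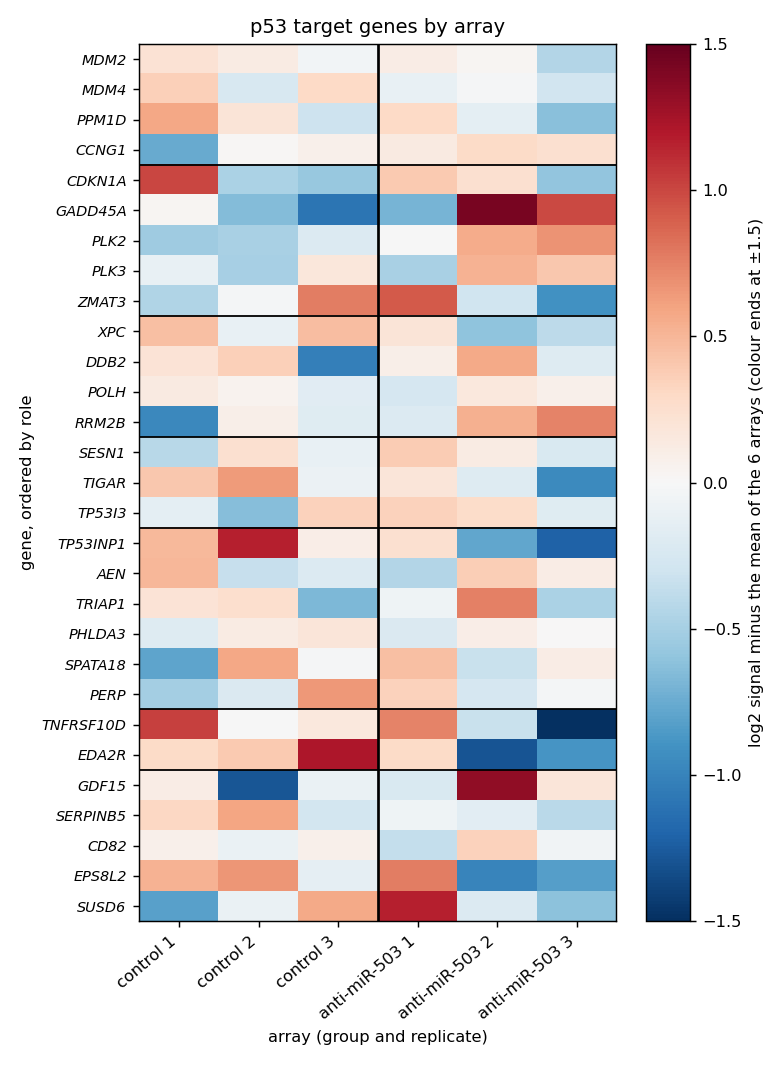
Log2 signal of each of the 29 measured p53 target genes on each array minus the mean of the 6 arrays (red above, blue below, colours end at 1.5 in either direction), with horizontal lines between roles and a vertical line between the groups. GADD45A and GDF15 are red on anti-miR-503 replicate 2 and EDA2R is blue there, and every column holds both colours.

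Lists of related genes were read in the same fit. In that fit 0.872% of all rows passed the 2-fold threshold upwards and 0.914% downwards, and the median over all rows was 0.0098. Of 21 genes for p53 and its regulators, 17 had a row, 0 were 2-fold higher or lower, and the median log2 difference was -0.045. CDKN2A, whose product ARF holds MDM2 back from p53, gave 3.01 to 3.23 on the 6 arrays, below background. Of 20 other p53 targets, 19 had a row, 1 passed the 2-fold threshold upwards, 0 downwards, and the median was 0.22. The 1 gene was PMAIP1 (NOXA), which promotes apoptosis at mitochondria, with signals of 9.03, 9.80 and 9.59 on control arrays against 9.65, 12.55 and 12.02 on anti-miR-503 arrays. Anti-miR-503 replicates 2 and 3 stood far above the other 4 arrays and replicate 1 lay inside the control range, as for GADD45A. The log2 difference of PMAIP1 was 1.94 (SE 0.66, adjusted p = 0.756 from limma). The count of 1 in this list became 0 without control replicate 1, anti-miR-503 replicate 2 or anti-miR-503 replicate 3. In these fits 0.573%, 0.443% and 0.378% of all rows were higher. The count became 2 without control replicate 3 or anti-miR-503 replicate 1, where 1.38% and 2.42% of all rows were higher.

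The 20 genes that p21 represses through the DREAM complex, among them cyclin B1, CDK1 and MKI67, are genes of cell division and were all measured. Their median against the mean of the 6 arrays was 0.78, 1.04 and -2.03 on control replicates 1, 2 and 3, and -1.65, 0.87 and 0.69 on anti-miR-503 replicates 1, 2 and 3. They were thus low on 1 array of each group, the pair of arrays named above, and their median log2 difference between the groups was 0.094 with 0 genes past the 2-fold threshold. In the RNA of a whole culture, fewer dividing cells and less of these RNAs per cell cannot be told apart. On these 2 arrays CDKN1A was 11.76 and 12.71, inside the range of the other 4. The part of the cell division genes in the differences of the p53 targets was not tested. Without control replicate 3 their median difference was -0.87 and without anti-miR-503 replicate 1 it was 0.82. The 12 genes of the integrated stress response had 0 genes past the threshold and a median of -0.097, and of 12 immediate early genes 11 were measured, with 0 past the threshold and a median of 0.31.

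**Figure D4:**
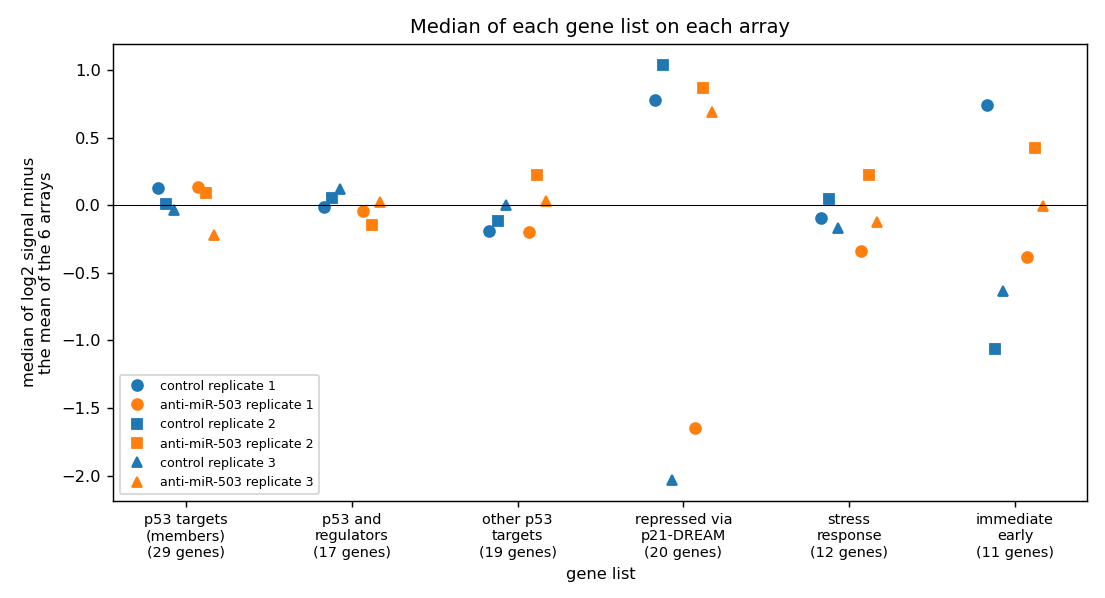
Median over each gene list of the log2 signal minus the mean of the 6 arrays, 1 point per array (control in blue, anti-miR-503 in orange, symbols for the replicate number). The p53 target genes stay between -0.22 and 0.13 on every array, whereas the genes repressed through p21 and DREAM fall to -2.03 on control replicate 3 and -1.65 on anti-miR-503 replicate 1.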

How the data were processed

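RNA of 6 MSTO samples was measured on Clariom S arrays. The authors processed the arrays by RMA in TAC (Transcriptome Analysis Console) and deposited 1 log2 value per transcript and array. Which RMA variant and annotation build they used was not given in the sources used here. There is no read depth for arrays. All 6 columns were mapped to a group and replicate by their titles, and no further normalization was applied. Array controls (2903 of 24351 rows) were dropped, and 17709 of the 21448 rows tested carried 1 gene symbol from the platform annotation, of which those of the 29 members were checked by gene ID against RefSeq. The comparison used limma 3.58.1 (lmFit, then eBayes) under R 4.3.3 without covariates, and p-values were adjusted over all rows by Benjamini-Hochberg. A second, unadjusted threshold combined p at or under 0.05, the level in the study's methods, with a change of 2-fold or more. The members and the gene lists were chosen with earlier results of these data known.

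Genes given array by array are CCNG1, each member past a threshold and the 2 members of each role with the smallest p (14 genes), with MDM2, CDKN1A and some others named outside this rule. Other settings tried were the methods' t-test, robust estimation with a variance trend, a filter that dropped rows below the median level, array weights, centring of each array, renormalization by quantiles, a block for the replicate number, a 1.5-fold threshold and the omission of each array in turn. The fit without control replicate 3 and anti-miR-503 replicate 1 was added after the data had been seen. The procedure was tested on simulated data. Sequences came from RefSeq (GRCh38.p14) and from the primer list of the study. The q-PCR, small RNA sequencing and tissue data were not analysed here, and from the fold changes and p-values in the study's own gene sheet only the direction of 3 members was read. Figures were drawn with matplotlib 3.10.9 in Python 3.11.15.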

Additional observations from a re-analysis of the deposited data

How the results depend on the processing

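With 3 arrays in each group, single arrays decided most counts. With single arrays left out, the members past the 2-fold threshold numbered 0 to 3 higher and 0 to 4 lower (beside 0.378% to 2.42% and 0.382% to 3.81% of all rows). Those with groups that did not overlap numbered 2 to 6 higher and 1 to 6 lower (beside 9.25% to 16% and 7.13% to 15.9% of all rows). In these fits 0 members passed the adjusted threshold. Of all rows, 77 higher and 77 lower passed it without anti-miR-503 replicate 1, and 0 with any other single array left out. In the other lists the same fits gave, for p53 and its regulators, 0 to 1 higher, 0 to 1 lower and a median of -0.17 to 0.016. They gave for other p53 targets 0 to 2 higher and 0 to 1 past the adjusted threshold, and for genes repressed through p21 and DREAM 0 to 2 lower. They gave for the integrated stress response 0 to 1 higher and 0 to 1 lower. For immediate early genes they gave 0 to 4 higher, 0 to 1 lower and 0 to 1 past the adjusted threshold. The 2-fold counts of these lists stand beside the same shares of all rows, 0.378% to 2.42% higher and 0.382% to 3.81% lower. The counts of 1 past the adjusted threshold came from the fit without anti-miR-503 replicate 1. The difference of CDKN1A ran from -0.25 to 0.53 and that of SPATA18, below background, from -0.20 to 0.49.

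The methods' t-test left 0 members lower, beside 0.256% of all rows, and 0 other p53 targets higher, beside 0.177%. With rows below the median level left out 1 member was lower, beside 1.15% of the rows kept, since 24 members were then tested. Array weights gave 3 members lower (EPS8L2 in addition), beside 1.92% of all rows, and 2 members higher, beside 1.59%, and also 1 regulator, 1 stress response gene and 2 immediate early genes higher, and turned SPATA18 to -0.059. In all fits that kept the 6 arrays, the methods' t-test included, 0 members and 0 of all rows tested passed the adjusted threshold. A 1.5-fold threshold gave 1 member (PLK2) and 1 stress response gene higher, beside 2.86% of all rows. The 2 lower members (TP53INP1 and EDA2R) stayed lower, beside 2.88% of all rows. Leaving out control replicate 3 and anti-miR-503 replicate 1 together gave 4 members higher, 5 lower and 4 past the adjusted threshold, with 6 higher and 9 lower without overlap (beside 24.3% and 23.8% of all rows), and turned CDKN1A to -0.44. That fit gave for the regulators 1 higher, 1 lower and 1 past the adjusted threshold, for other p53 targets 2 higher and 2 past it, for the DREAM genes 1 lower and 1 past it, for the stress response 1 higher, 1 lower and 1 past it, and for immediate early genes 3 higher and 1 past it. In the same fit 3.09% of all rows were higher past the 2-fold threshold and 4.43% lower, and 222 higher and 287 lower rows passed the adjusted threshold. The cause of the changes under these settings was not tested.

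No common pairing by replicate number was seen: deviations of same-numbered arrays correlated at -0.1, 0.213 and 2.94e-05. Deviations from a mean of so few arrays depend on each other, so they cannot decide whether same-numbered samples shared a batch. With the replicate block 2 members stayed lower, beside 1.06% of all rows. In that fit 0 members and 1 immediate early gene were higher, beside 0.919% of all rows. No member had several rows, so that alternative had nothing to change. Rows not well above background, 6 members among them, limit what the signal can show.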

Other observations

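These values were chosen after they had been seen and belong to no comparison of the groups. Control replicate 1 was the highest array for CDKN1A (13.33) and, among the other p53 targets, for the pore-forming BAX, with 13.66 against 11.80 to 12.69 on the other 5 arrays. Immediate early genes are transcription factors and related genes that respond within minutes to growth factors or stress. Of the 11 measured, 6 were highest on the same array, 4 on anti-miR-503 replicate 2 and 1 on anti-miR-503 replicate 3. EGR1 was 13.82 on control replicate 1 and 6.56 to 8.53 elsewhere, and IER2 was 12.33 and 9.26 to 10.40 elsewhere. FOS was 8.57 on control replicate 1 and 5.29 to 6.0 elsewhere, where it was below background. In contrast, FOSL1 was 13.05 on control replicate 1 and 15.20 and 15.73 on anti-miR-503 replicates 2 and 3. CCNG1 (13.26) and RRM2B (11.02) were lowest on control replicate 1.

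Control replicate 3 and anti-miR-503 replicate 1, on which the cell division genes were low, were the 2 highest arrays for 4 of the 29 members (ZMAT3, PERP, SUSD6 and TP53I3) and for 3 of the 19 other p53 targets (DRAM1, CYFIP2 and TP53AIP1). Of these, 2 and 2 were above background on all arrays. The share of all rows with these 2 arrays highest was not counted, so whether the counts are particular to p53 targets was not tested. ZMAT3 was 11.46 and 11.61 there and at most 10.67 elsewhere, SUSD6 was 7.66 and 8.27 there and at most 7.0 elsewhere, and PERP was 14.10 and 13.80 there and at most 13.42 elsewhere. All but 1 of the SUSD6 values and all of TP53I3 were below background. In the anti-miR-503 arrays, replicates 2 and 3 were the highest of the 6 for GADD45A and PMAIP1. The same held for DDIT3, a transcription factor of the integrated stress response, with 11.42 and 11.09 against 9.69 to 10.17 on the other 4 arrays. DDIT3 was picked from a list of 12 genes, of which 4 had higher and 8 had lower means on anti-miR-503 arrays.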
